A study of Mus musculus with 17 samples.

Results

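Markers of the bile duct lining, 6 in all, were followed in mouse liver and liver tumor, namely Krt7, Krt19, Epcam, Sox9, Muc1 and Prom1. They were picked by gene symbol alone, and all 6 were listed in both count tables, which hold 19151 genes for the high-fat diet (HFD) and 24233 genes for the Western-type diet (WD). The study asked what loss of NgBR in the liver does to gene expression when mice are overfed. NgBR is the protein made from Nus1, a subunit of the cis-prenyltransferase that makes dolichol for protein glycosylation. Male C57BL6 mice ate chow until 8 weeks of age and then HFD or WD for 16 weeks. WT mice were compared with mice whose loxP-flanked NgBR gene is cut by an albumin-driven Cre (N-LKO). There were 4 WT and 4 N-LKO livers on HFD, and 3 WT livers, 3 N-LKO livers and 3 tumors of N-LKO mice on WD. The albumin promoter is active in hepatocytes and in the shared precursors of hepatocytes and bile duct cells, so the Cre does not mark 1 cell type. Whether a tumor and a liver library came from the same mouse is not given in the sources used here. Separate mice are meant by the sample titles, which number the libraries as biological replicates.

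Cholangiocytes are the epithelial cells that line the bile ducts. In chronic liver injury, small duct-like strands of such cells spread from the portal tracts, which pathologists call a ductular reaction, and some hepatocytes and some liver cancers switch on the same markers. Krt7 and Krt19 encode keratins of simple duct epithelium that hepatocytes normally lack. Epcam encodes a cell adhesion protein of epithelia, Muc1 a membrane mucin of the luminal surface and Prom1 (prominin-1, CD133) a membrane protein of cell protrusions that is used as a marker of progenitor cells. Sox9 encodes a transcription factor needed for bile duct formation, which is also found in a subset of hepatocytes near the portal tract. In RNA from whole tissue, a change in the number of such cells and a change in RNA per cell cannot be told apart.

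The 6 genes lie on 5 chromosomes of GRCm38. Sox9 and Krt19 are both on chromosome 11, at chr11:112782224-112787760 on the plus strand and chr11:100140810-100148665 on the minus strand. Epcam is at chr17:87635979-87651129 and Muc1 at chr3:89229057-89233381, both on the plus strand. Krt7, at chr15:101411043-101430313 on the plus strand, overlaps the annotated gene Gm671. Prom1, at chr5:43993620-44102032 on the minus strand, overlaps Gm42716 and Gm16401. None of these 3 overlapping genes was listed in either table, and every count of the 6 markers was a whole number, so no read of theirs was divided between genes.

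RefSeq promoter windows of GRCm38.p6 were at hand for 4 of the 6 genes, namely Epcam, Krt7, Muc1 and Prom1. The 250 bases before the first RefSeq start of Prom1 at hand and before the start of Epcam are printed 5′ to 3′ on the gene's own strand. The Prom1 window lies inside the gene span given above, which begins further upstream. Prom1 was chosen because it was higher in each tumor than in every liver on WD, like Sox9, and Epcam because it was not. Capitals mark matches to any of 4 motifs that were searched on both strands, the TEAD motif GGAATG, the RBPJ motif TGGGAA, the SOX motif AACAAT and the GC box GGGCGG.
Prom1 (chr5:44101737-44101986, minus): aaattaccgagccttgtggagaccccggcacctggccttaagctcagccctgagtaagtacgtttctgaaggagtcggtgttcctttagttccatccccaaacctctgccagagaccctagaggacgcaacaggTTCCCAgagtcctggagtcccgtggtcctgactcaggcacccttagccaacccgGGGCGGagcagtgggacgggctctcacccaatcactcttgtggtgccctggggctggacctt
Epcam (chr17:87635729-87635978, plus): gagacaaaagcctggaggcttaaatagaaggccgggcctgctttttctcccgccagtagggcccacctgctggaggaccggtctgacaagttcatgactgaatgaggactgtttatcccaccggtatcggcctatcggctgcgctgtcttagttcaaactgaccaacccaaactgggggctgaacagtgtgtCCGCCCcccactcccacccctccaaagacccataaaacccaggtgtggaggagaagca
The Prom1 window holds an RBPJ motif, read on the opposite strand, and a GC box. The Epcam window holds a GC box on the opposite strand and none of the other 3 motifs. Among the 32851 promoter windows of the same length, 21.6% hold the RBPJ motif and 32.7% the GC box, so neither match sets these windows apart. The TEAD motif is in 12.6% of all windows and was found in that of Muc1, and the SOX motif is in 9.42% and was not found in a window of the 4 genes.

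Nus1 itself was lower in every N-LKO library than in every WT library of the same diet. Its mean level was 35.02 ± 3.97 CPM in N-LKO and 87.98 ± 5.89 CPM in WT liver on HFD (SD, n = 4 each), where CPM is the count scaled to a common library size after TMM scaling. On WD it was 46.65 ± 4.745 CPM in N-LKO liver, 35.75 ± 7.59 CPM in tumor and 94.4 ± 5.58 CPM in WT liver (SD, n = 3 each). The test of Nus1 passed on HFD and in tumor against WT liver (adjusted p = 0.000194 and 0.00433 in edgeR), and in N-LKO against WT liver on WD its adjusted p was 0.151. The fit used for that WD comparison, which includes the tumors, thus did not call Nus1 itself. It was called in edgeR with the 2 groups alone (adjusted p = 0.0307) and in DESeq2 (adjusted p = 2.47e-05). Library totals ran from 9096110 to 12215784 counts on HFD and from 15494731 to 20200618 on WD. The pancreatic enzyme genes Cpa1, Cela2a, Ctrb1, Pnlip and Cel, which liver should lack, summed to 29.8 CPM in WT liver replicate 3 on WD and to at most 1.66 CPM in each other WD library. That library also had the highest Epcam and Prom1 of the WT livers on WD. The fold changes of the markers against WT liver on WD are therefore also given without it.

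Of the 6 markers, 5 were near the limit of counting in HFD livers, and Sox9 was the exception. Per kilobase of the longest annotated transcript, the only scale on which genes are compared here, Sox9 averaged 1.61 ± 0.327 CPM per kb in N-LKO and 1.25 ± 0.229 in WT liver (SD, n = 4 each). Epcam came next in both, with 0.575 ± 0.253 and 0.291 ± 0.0889 CPM per kb. In WT liver the spread of Epcam overlapped that of Krt19. Krt7 averaged 0.0765 ± 0.0429 and 0.0314 ± 0.0123 CPM per kb, and its spread overlapped that of Prom1 in N-LKO liver (0.1597 ± 0.1128) and that of Muc1 in WT liver (0.0551 ± 0.0652), where both were at the floor with 5 counts in all. The order of Krt7, Krt19, Muc1 and Prom1 was therefore not resolved in either genotype.

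**Figure D1:**
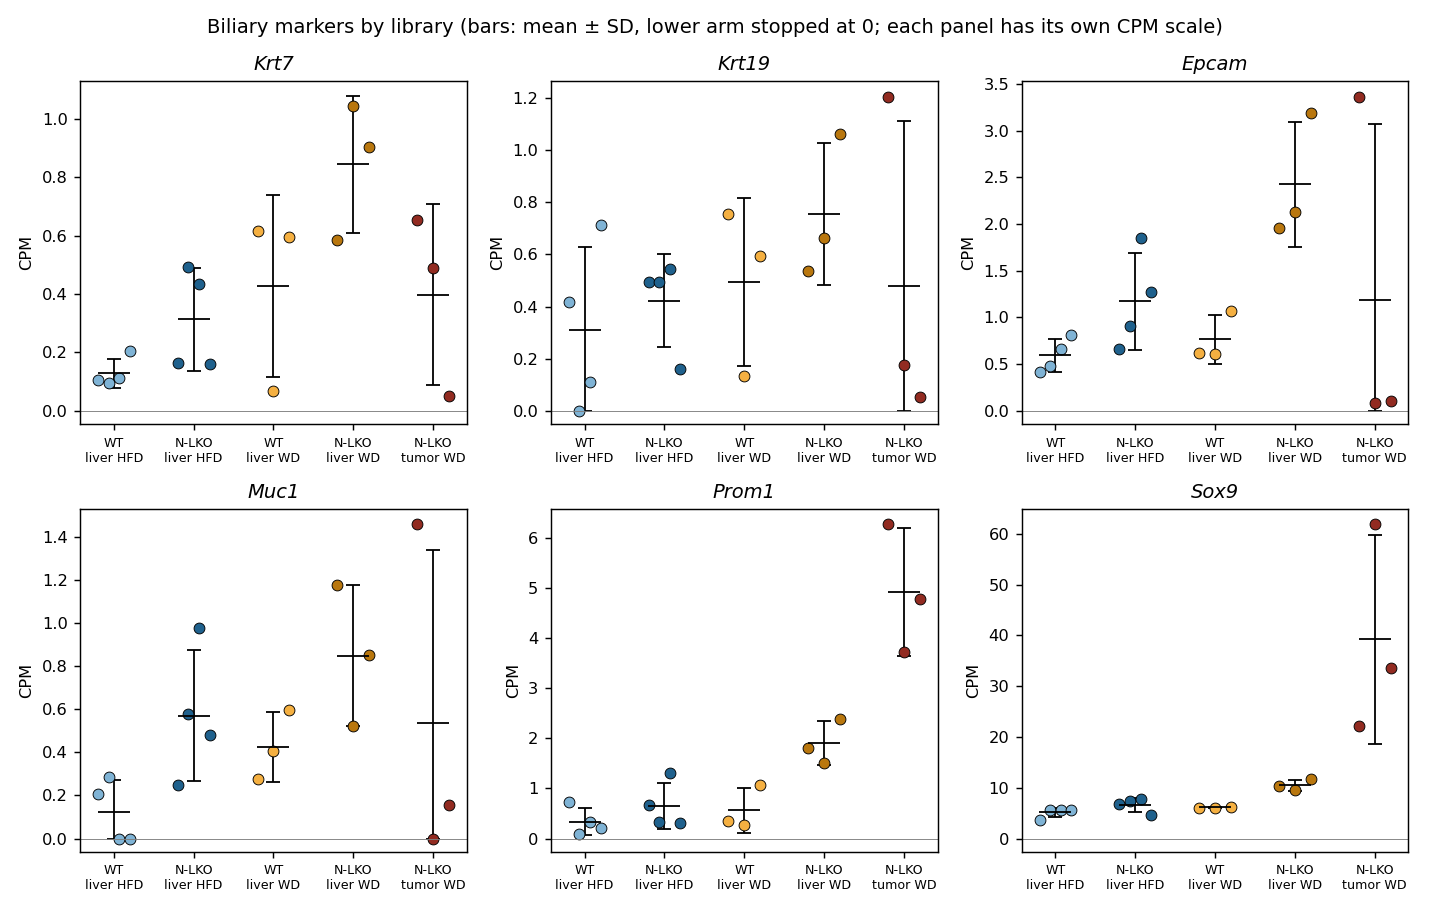
Level of each marker in CPM (vertical axis, its own scale per panel) for every library of the 5 groups, with the group mean and SD drawn as bars whose lower arm is stopped at 0. Epcam, Prom1 and Sox9 of the N-LKO livers on WD lie above all WT livers on WD, and tumors 2 and 3 lie near 0 for Epcam while standing highest for Sox9.

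In HFD livers the markers tended to higher means in N-LKO, but none passed the test. Sox9, the only one of the 6 whose counts passed the filter on low counts, had 83, 90, 71 and 59 counts in the 4 N-LKO livers and 36, 58, 51 and 56 in the 4 WT livers. That is 6.67 ± 1.35 CPM against 5.16 ± 0.9455 CPM (SD, n = 4 each), and N-LKO replicate 4, at 4.71 CPM, fell inside the WT range. The log2 fold change was 0.36 ± 0.20 (SE) with an adjusted p of 0.301 in edgeR's quasi-likelihood test, Benjamini-Hochberg adjusted over all 13460 genes tested. In that comparison 4.84% of all genes tested passed an adjusted p of 0.05, 2.29% of them downward, and 0 of the 1 marker tested did. An unadjusted p under 0.05 was found for 22.7% of all genes tested. No overlap between the groups was found for 14.8% of all genes tested (7.38% higher in N-LKO) and for 0 of the 6 markers.

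The 5 rarer markers had means that were higher in N-LKO in all 5 cases. Epcam had 8, 11, 17 and 16 counts in N-LKO and 4, 5, 6 and 8 in WT liver, and 3 of the N-LKO livers, replicates 2, 3 and 4, exceeded every WT library. Muc1 had 3, 7, 9 and 6 counts in N-LKO and 2, 3, 0 and 0 in WT, which is no more than the 3 counts taken as the floor in any WT library. Its N-LKO mean of 0.570 ± 0.304 CPM (SD, n = 4) was 1.71-fold the highest level that this floor of 3 counts stands for in a WT library. The groups overlapped, since N-LKO replicate 1, itself at 3 counts, had 0.248 CPM and WT replicate 2 had 0.286 CPM.

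Krt7 had 2, 6, 4 and 2 counts in N-LKO and 1, 1, 1 and 2 in WT liver, the latter again at the floor in every library. Krt19 had 6, 6, 5 and 2 counts against 4, 0, 1 and 7, with full overlap of the groups. Prom1 had 8, 4, 12 and 4 counts against 7, 1, 3 and 2, also with overlap. When all 19151 genes were fitted without the filter, the adjusted p in edgeR was 0.189 for Muc1, 0.25 for Epcam, 0.403 for Krt7, 0.509 for Prom1 and 0.818 for Krt19. The log2 fold changes of the 3 markers above the floor in that fit were 0.96 ± 0.43 for Epcam, 0.90 ± 0.67 for Prom1 and 0.44 ± 0.77 for Krt19 (SE).

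Summed over the 5 rarer markers, the 4 N-LKO livers on HFD had 2.23, 2.80, 5.10 and 2.40 CPM, and the 4 WT livers 1.87, 0.954, 1.22 and 1.93 CPM. The lowest N-LKO sum was above the highest WT sum although no single marker separated the groups. This sum was formed after the values were seen and carries no test.

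Other genes of the bile duct lining were more abundant and could be tested. Of 22 further genes listed for this epithelium, 19 were in the HFD table and 13 passed the filter. Among these 13, 6 rose in N-LKO liver and 0 fell, and their median log2 fold change was 0.854, beside -0.01 over all genes tested. Genes that rose made up 2.56% of all genes tested. This list and the other gene lists were chosen with earlier results of these data known, so their shares are descriptions. Spp1, which encodes osteopontin and is made by bile duct cells and by some macrophages, had 59.7, 45.1, 88.8 and 55.4 CPM in the N-LKO livers and 33.7, 14.3, 22.3 and 14.5 CPM in the WT livers, with no overlap. Its log2 fold change was 1.55 ± 0.27 (SE, adjusted p = 0.0139 in edgeR).

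Bicc1, which encodes an RNA-binding protein linked to cystic ducts, rose by 1.53 ± 0.28 on the log2 scale (adjusted p = 0.0167). Tspan8, a tetraspanin of epithelial membranes, rose by 2.83 ± 0.60 (adjusted p = 0.0251) and Slc5a1, the sodium-glucose cotransporter SGLT1, by 1.62 ± 0.41 (adjusted p = 0.0477). Cd24a and Tm4sf4, which encode surface proteins of duct and progenitor cells, fall outside the rule for naming genes and are given because they complete the 6, with log2 fold changes of 1.37 ± 0.29 and 0.55 ± 0.11 (adjusted p = 0.0242 and 0.0186). Left out one at a time, none of the 8 livers ended the call of Spp1. Without WT replicate 2 the other 5 calls were lost, with an adjusted p between 0.0549 for Bicc1 and 0.127 for Slc5a1. The call of Slc5a1 was kept only without N-LKO replicate 4. Without N-LKO replicate 1 the calls of Tspan8, Cd24a and Tm4sf4 were lost as well, without N-LKO replicate 3 those of Tspan8 and Cd24a, and without WT replicate 4 those of all 3. The adjusted p-values of these lost calls lay between 0.0516 and 0.0748. With an offset for length and GC content the calls of Slc5a1 (0.0614) and Tm4sf4 (0.0593) were lost, and that of Slc5a1 also in limma-voom (0.0646) and without the count filter (0.0589).

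Krt8 and Krt18, the keratin pair of hepatocytes and of duct cells alike, also rose on HFD. Krt18 had 174.6, 182.6, 174.9 and 179.9 CPM in N-LKO and 134.3, 118.8, 129.7 and 107.2 CPM in WT liver. Its log2 fold change was 0.54 ± 0.08 (SE, adjusted p = 0.00988), and no liver left out ended that call. Krt8 rose by 0.43 ± 0.10 (adjusted p = 0.0285), a call that was kept in 2 of 8 fits that left out a liver, those without N-LKO replicate 2 and WT replicate 1, with adjusted p-values up to 0.0865 in the rest, and was lost with the length and GC offset (0.111). The duct keratins Krt7 and Krt19 did not pass the count filter there.

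On WD, all 6 markers had a higher mean in N-LKO than in WT liver, and 3 of them separated the groups without overlap. None passed the adjusted test, in a comparison in which 0 of 17829 genes (0.0%) did and 2212 (12.4%) had an unadjusted p under 0.05. The DESeq2 Wald test called 100 genes there and also 0 of the 6 markers. Of all genes tested, 14.3% lay higher in every N-LKO than in every WT liver, against 3 of the 6 markers, and 27.9% did not overlap in either direction. The median log2 fold change of the 6 was 0.965, beside 0.0134 over all genes tested.

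Prom1 had 37, 32 and 45 counts in the 3 N-LKO livers and 5, 4 and 18 in the 3 WT livers. In CPM the means were 1.91 ± 0.445 and 0.562 ± 0.443 (SD, n = 3 each), and the lowest N-LKO liver, at 1.52 CPM, was above the highest WT liver, at 1.07 CPM. The log2 fold change was 1.72 ± 0.47 (SE), with an unadjusted p of 0.00427 and an adjusted p of 0.353 in edgeR. Without WT replicate 3, the library with the pancreatic genes, it was 2.60 with an adjusted p of 0.3. In none of 20 alternative fits did it pass, the lowest adjusted p being 0.0588 in DESeq2.

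Epcam had 40, 45 and 60 counts in N-LKO and 9, 9 and 18 in WT liver, again without overlap. The log2 fold change of 1.64 ± 1.00 (SE, adjusted p = 0.503) came with a wide error, and the fit pools the spread of the 3 tumors, which differed for Epcam from 2 to 67 counts. Fitted without tumors its adjusted p was 0.148, the lowest of 19 alternatives. Sox9 had 212, 200 and 219 counts against 89, 90 and 105. The WT livers averaged 6.15 ± 0.0889 CPM and the N-LKO livers 10.5 ± 1.08 CPM (SD, n = 3 each), with no overlap. The log2 fold change was 0.77 ± 0.32 (SE, unadjusted p = 0.0364, adjusted p = 0.386).

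The other 3 markers overlapped between genotypes. Muc1 had 24, 11 and 16 counts in N-LKO and 4, 6 and 10 in WT liver, with a log2 fold change of 0.97 ± 0.99 (SE, adjusted p = 0.683). Krt7 had 12, 22 and 17 counts against 9, 1 and 10, and Krt19 had 11, 14 and 20 against 11, 2 and 10. WT replicate 2 held the lowest value of both keratins and WT replicate 1 the highest. That WT replicate 1 also had the highest sum of 8 mesothelial genes on WD, 16.3 CPM against 10.1 and 4.23 CPM in the other WT livers, and mesothelial cells carry both keratins. The part of such cells in the keratin values was not tested. The log2 fold changes were 0.96 ± 0.73 for Krt7 (adjusted p = 0.582) and 0.59 ± 0.87 for Krt19 (adjusted p = 0.784). Without WT replicate 3 the log2 fold changes of the markers other than Prom1 were 1.97 for Epcam (adjusted p = 0.495), 0.78 for Sox9 (0.4), 1.3 for Muc1 (0.647), 1.29 for Krt7 (0.539) and 0.75 for Krt19 (0.765).

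Summed over the 5 rarer markers, the N-LKO livers on WD had 6.06, 5.88 and 8.39 CPM and the WT livers 2.61, 1.49 and, in replicate 3, 3.93 CPM, so that the groups were apart on this diet too. Of the 22 further bile duct genes, 19 were tested on WD, 0 passed and 17 had a positive log2 fold change, with a median of 1.27. The lowest unadjusted p-values among them belonged to Ehf, an epithelial ETS transcription factor (log2 fold change 1.97 ± 0.40, adjusted p = 0.275), and Bicc1 (1.12 ± 0.25, adjusted p = 0.353), both called by DESeq2 (adjusted p = 0.00312 and 0.0193).

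**Figure D2:**
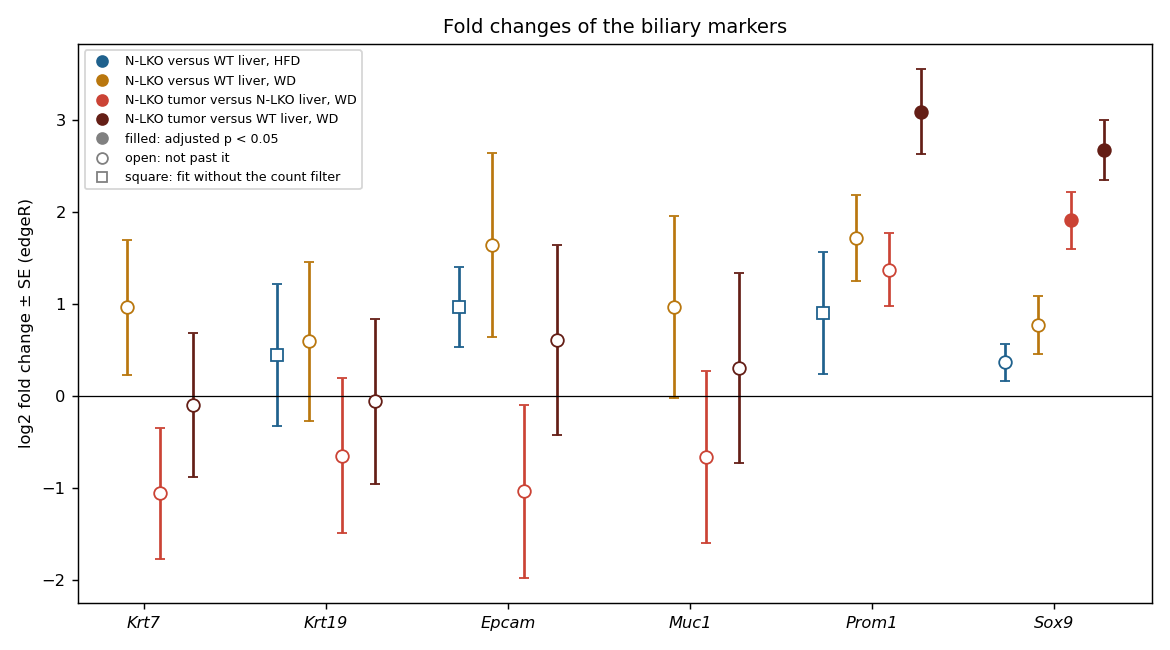
The log2 fold change of each marker with its SE from edgeR (vertical axis) in the 4 comparisons, as filled symbols where the adjusted p was under 0.05 and squares where the fit without the count filter was used. Krt7 and Muc1 on HFD are left out because WT liver was at the floor. Filled symbols are found for Sox9 in both tumor comparisons and for Prom1 in tumor against WT liver.

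The genotype effect was not shown to differ between the diets for any marker. The difference, WD minus HFD, was fitted over the 14 livers and 15850 genes, of which 1.62% passed. Each diet has a count table of its own, of unlike depth, so diet and table cannot be told apart in this difference. Of the 4 markers tested, 0 did. The differences on the log2 scale were 0.70 ± 0.56 for Epcam (SE, adjusted p = 0.516), 0.42 ± 0.25 for Sox9 (0.368), 0.84 ± 0.89 for Prom1 (0.636) and -1.07 ± 0.95 for Muc1 (0.564). Pkhd1, which encodes the fibrocystin of duct cilia, had the lowest unadjusted p of the further bile duct genes, with a difference of 1.39 ± 0.34 (adjusted p = 0.0517). It passed without N-LKO replicate 3 on HFD (0.0458), without WT replicate 3 on WD (0.0348), in DESeq2 (0.00603) and with the filter at a mean of 1 CPM (0.0488).

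In the tumors the 6 markers parted ways. Sox9 and Prom1 were higher in all 3 tumors than in every liver on WD. Epcam, Muc1 and Krt19 were highest of the 9 WD libraries in tumor 1 and lowest in tumor 2 or 3. Krt7 was lowest in tumor 3, with 1 count there and in WT replicate 2 alike. Sox9 had 440, 1398 and 645 counts in tumors 1, 2 and 3, which is 39.2 ± 20.6 CPM (SD, n = 3). Against N-LKO liver the log2 fold change was 1.90 ± 0.31 (SE, adjusted p = 0.0355 in edgeR) and against WT liver 2.67 ± 0.33 (adjusted p = 0.00529).

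Sox9 was 1 of 6 markers to pass against N-LKO liver, where 0.499% of all genes passed (0.437% higher and 0.0617% lower), and Sox9 and Prom1 were 2 of 6 against WT liver, where 14.9% did (8.08% higher and 6.8% lower). Sox9 and Prom1 were also the 2 of 6 without overlap in each comparison. Of all genes tested, 23.1% did not overlap against N-LKO liver (11.5% higher) and 34.1% against WT liver (17.7% higher). The median log2 fold change of the 6 was -0.66 against N-LKO liver and 0.452 against WT liver, beside 0.0151 and 0.0413 over all genes tested. The call of Sox9 against WT liver was kept in all 20 alternative fits. That against N-LKO liver was kept in 9 of 20. It was lost when an N-LKO liver was left out (adjusted p = 0.145, 0.216 and 0.186 for replicates 1, 2 and 3), without tumor 3 (0.0694) and without WT replicate 1, 2 or 3 (0.0782, 0.0543 and 0.0716), and with the 2 groups alone (0.104), while over all 20 alternatives the log2 fold change ran from 1.4 without tumor 2 to 2.19 without tumor 1.

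Prom1 had 125, 84 and 92 counts in the tumors, or 4.93 ± 1.28 CPM (SD, n = 3). Here tumor 1 was highest and tumor 2 lowest, the reverse of Sox9. Against WT liver the log2 fold change was 3.09 ± 0.46 (SE, adjusted p = 0.00782), and the call held in all 20 alternatives, with 3.97 (adjusted p = 0.0144) without WT replicate 3. Against N-LKO liver the difference of 1.37 ± 0.40 (adjusted p = 0.126) passed only in DESeq2 (0.0213), although the lowest tumor, at 3.73 CPM, lay above the highest N-LKO liver, at 2.39 CPM. Both tumor comparisons share the 3 tumors and are not independent of each other.

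Epcam split the tumors. It had 67 counts in tumor 1 but 2 counts each in tumors 2 and 3, or 3.36, 0.0887 and 0.104 CPM. Tumor 1 was the highest of all 9 WD libraries and tumors 2 and 3 were the lowest. The 95% counting intervals, which are exact Poisson and cover counting error only, ran from 2.61 to 4.27 CPM in tumor 1, from 0.0107 to 0.321 CPM in tumor 2 and from 0.0126 to 0.376 CPM in tumor 3. The interval of tumor 1 does not overlap the other two. Each WT liver on WD had at least 0.610 CPM. The intervals of WT replicates 1 and 2, from 0.282 to 1.17 CPM and from 0.279 to 1.16 CPM, overlapped those of tumors 2 and 3. That of WT replicate 3 began at 0.636 CPM and did not. The interval of N-LKO liver replicate 3 on WD, from 2.43 to 4.10 CPM, overlapped that of tumor 1.

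Muc1 followed Epcam, with 29, 0 and 3 counts in tumors 1, 2 and 3. In tumor 2 the floor of 3 counts equals 0.133 CPM, and the 95% counting interval of its 0 counts reached 0.1637 CPM. Krt19 had 24, 4 and 1 counts in the same order, again with tumor 1 above every liver and tumor 3 below every liver. The nearest livers had 20 counts (N-LKO replicate 3) and 2 counts (WT replicate 2), and their counting intervals overlapped those of tumors 1 and 3. Krt7 had 13, 11 and 1 counts, with tumors 1 and 2 inside the liver range. Tumor 3, at 0.0520 CPM, was below it only by library scaling, since WT replicate 2 also had 1 count (0.0678 CPM). Tumor 2 had the highest mesothelial sum of the tumors, 14.4 CPM against 5.17 and 6.14 CPM, and the part of such cells in its Krt7 value was not tested.

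None of these 4 markers passed in either tumor comparison with all 3 tumors in the fit. Against N-LKO liver the log2 fold changes were -1.04 ± 0.94 for Epcam, -0.67 ± 0.94 for Muc1, -0.65 ± 0.84 for Krt19 and -1.06 ± 0.71 for Krt7 (SE). Against WT liver they were 0.60 ± 1.03, 0.30 ± 1.03, -0.06 ± 0.90 and -0.10 ± 0.78 in the same order. Without WT replicate 3 those against WT liver were 0.93, 0.63, 0.0915 and 0.22 (adjusted p of at least 0.658), and that of Sox9 was 2.68 (adjusted p = 0.025). Leaving out tumor 1 changed the calls. Epcam was then lower in tumor, with log2 fold changes of -4.56 against N-LKO liver (adjusted p = 0.00163) and, with the sign turned, -2.93 against WT liver (adjusted p = 0.00912). Muc1 had a log2 fold change of -3.42 against N-LKO liver (adjusted p = 0.0357). No other library left out gave a call for these 4 markers.

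**Figure D3:**
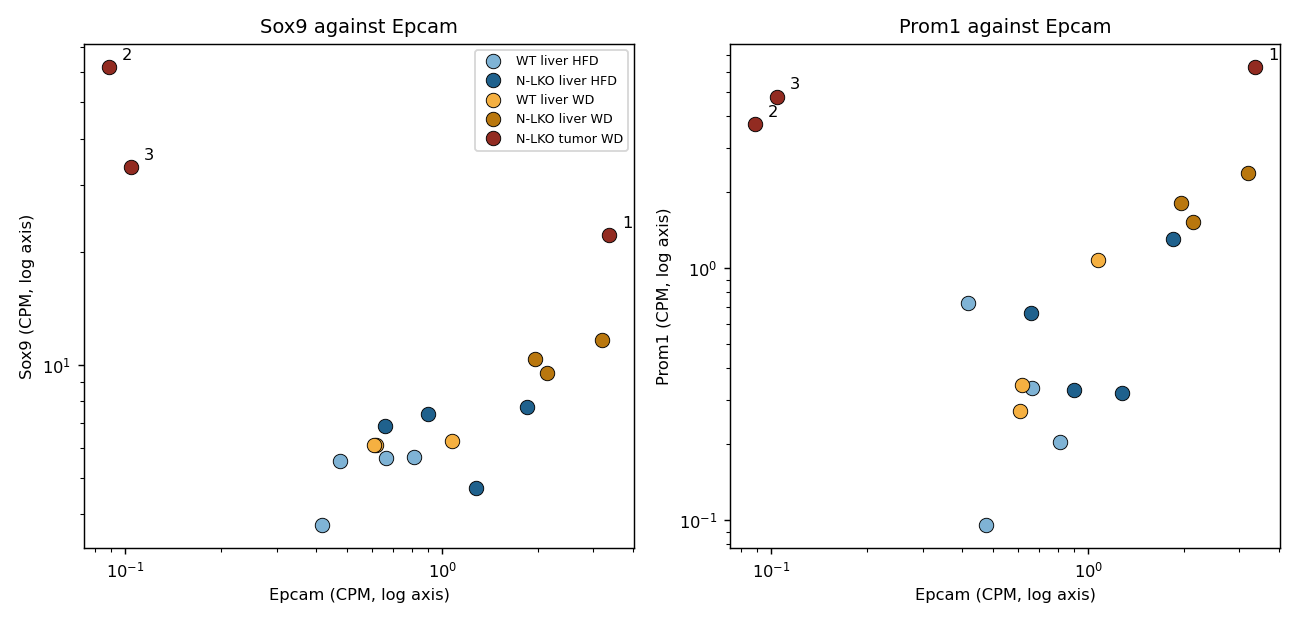
Sox9 (left, CPM) and Prom1 (right, CPM) plotted against Epcam (CPM) on log axes, with 1 point per library, colored by group and numbered for the tumors. Tumor 1 lies at 3.36 CPM of Epcam, and tumors 2 and 3 lie alone at 0.0887 and 0.104 CPM of Epcam with Sox9 at 62.0 and 33.6 CPM.

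The count of Sox9 per count of Epcam, a ratio within each library, is given as a description, since both genes were chosen after they were seen to part in the tumors. It was 5.3, 4.44 and 3.65 in the N-LKO livers, 9.89, 10 and 5.83 in the WT livers on WD and 6.57 in tumor 1. In tumors 2 and 3 it was 699 and 322.5. The same ratio in livers on HFD ran from 3.69 to 11.6, and N-LKO and WT overlapped.

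Likeness between markers over the 9 WD libraries is given as a description, since all points come from the same 9 libraries and carry their depth. The Pearson correlation of log2 CPM was 0.922 for Epcam with Muc1, 0.862 for Epcam with Krt19, 0.862 for Krt7 with Krt19 and 0.813 for Sox9 with Prom1. Sox9 and Epcam had a coefficient of -0.495 and Prom1 and Epcam one of 0.00432. By the mean profile of the 6 markers, the most similar named genes over the 9 WD libraries were Bex3 (r = 0.975), Vcan (0.965), Ptgfrn (0.961), Atad5 (0.961) and Fgf2 (0.96). Over the 8 HFD libraries they were Decr1 (0.973), Cadm1 (0.965), Mterf4 (0.954), Edf1 (0.95) and Ttc38 (0.941), none of which recurred on WD. Closest to Sox9 alone on WD, a choice made after its values were seen, was Slc34a2, a phosphate cotransporter of epithelia (r = 0.985), with means of 0.284 CPM in WT liver, 1.73 CPM in N-LKO liver and 39.8 CPM in tumor.

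The 22 further bile duct genes, listed with earlier results of these data known, were tested in the tumors as well. Against WT liver, 10 of the 19 tested rose in the tumors and 0 fell, beside 8.08% of all genes tested that rose, and their median log2 fold change was 1.36 beside 0.0413 over all genes. Vtcn1, a B7-family surface protein also found on duct cells, had 4.87, 7.28 and 3.64 CPM in tumors 1 to 3 and at most 3 counts in each WT liver, so it was at least 25.6-fold higher (adjusted p = 0.00563). Elf3, an epithelial ETS factor, had 3.11, 17.8 and 9.68 CPM in the tumors against a WT mean of 0.614 ± 0.184 CPM (log2 fold change 4.05 ± 0.61, adjusted p = 0.00784). Slc5a1 rose by 3.97 ± 0.63 (adjusted p = 0.00839). These 3 calls held in all 20 alternatives, as did those of Ehf (3.32 ± 0.40, adjusted p = 0.0047) and Bicc1 (2.16 ± 0.26, adjusted p = 0.00465), which fall outside the naming rule here and were chosen after their values were seen. Spp1, Cldn7, St14 and Pkhd1 complete the 10. Tspan8 rose by 3.76 ± 0.92 (adjusted p = 0.0266) but had 12.3 and 11.5 CPM in tumors 1 and 2 and 0.729 CPM in tumor 3, and its call was lost without tumor 2 (0.061) and without WT replicate 1, 2 or 3 (0.0705, 0.0939 and 0.0554), in limma-voom (0.194) and with the 2 groups alone (0.0728). Against N-LKO liver 0 of these 19 genes passed, and Elf3 (2.74 ± 0.54, adjusted p = 0.0614) and Vtcn1 (2.62 ± 0.52, adjusted p = 0.0627) were nearest.

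Another 3 genes followed Epcam. They were singled out after their values were seen and have no call with all tumors in the fit. Cftr, the chloride channel of duct cells, had 2.06 CPM in tumor 1 but 0.177 and 0.156 CPM in tumors 2 and 3, below each of the 6 livers on WD, the lowest of which had 0.549 CPM. Dcdc2a, which encodes a protein of the duct cell cilium, had 5.02, 0.843 and 0.468 CPM in the tumors and at least 2.37 CPM in every liver on WD. Mmp7, a matrix protease of injured duct epithelium, had 2.36, 0.133 and 0 CPM. Without tumor 1 all 3 were called lower in tumor than in N-LKO liver (log2 fold changes -3.26, -2.81 and -4.32, adjusted p = 0.00524, 0.00172 and 0.0483). No other library left out gave a call for these 3.

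**Figure D4:**
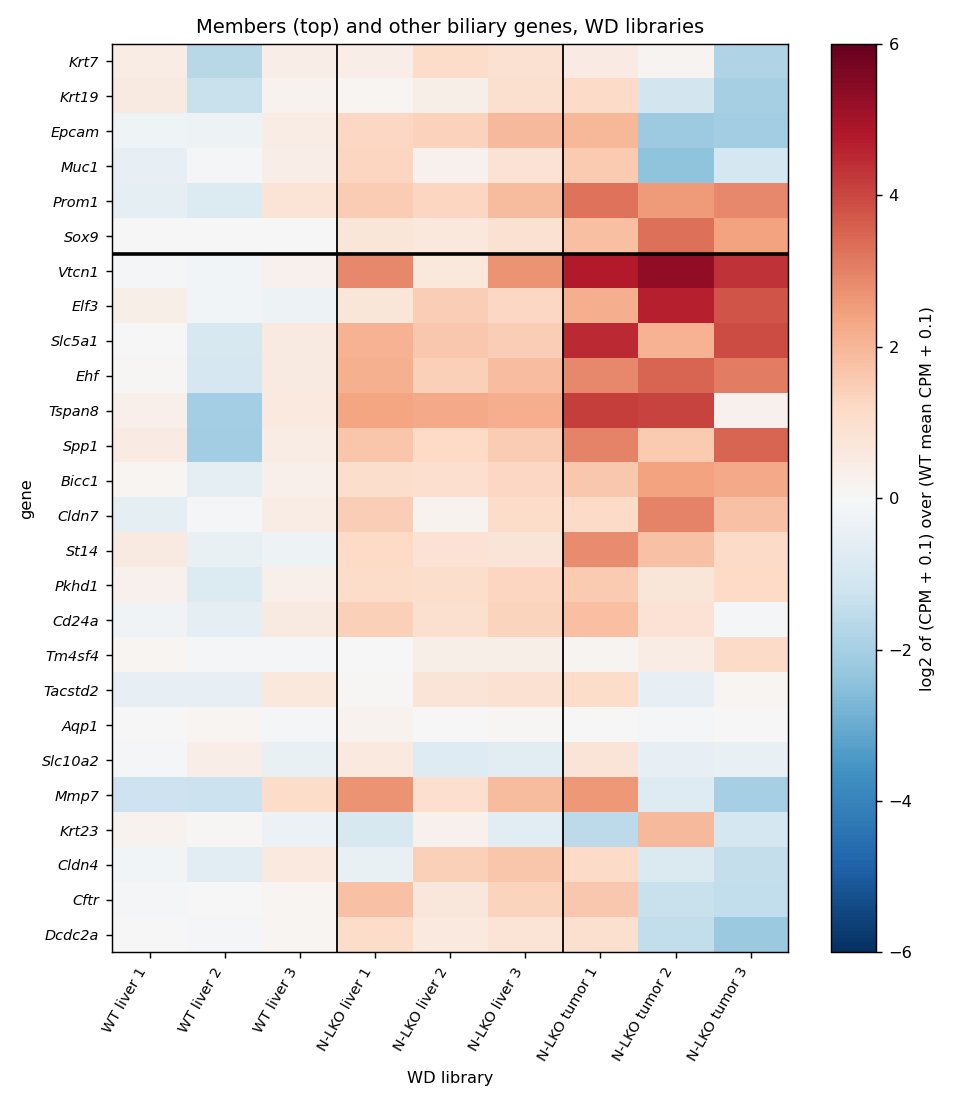
Heat map of the 6 markers (above the thick line) and 20 of the further bile duct genes on WD, with 1 column per library and color giving log2 of CPM plus 0.1 over the mean of the 3 WT livers plus 0.1. Vtcn1, Elf3, Ehf and Sox9 are high in all 3 tumors, and Epcam, Muc1, Cftr and Dcdc2a are above the WT mean in tumor 1 and below it in tumors 2 and 3.

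Notch signaling, in which Jag and Dll ligands on one cell activate Notch receptors and RBPJ on its neighbor, directs bile duct fate and turns on Sox9. Of 15 Notch pathway genes, 9 were tested on HFD and 14 on WD. None passed between N-LKO and WT liver on either diet (adjusted p in edgeR of at least 0.220 for HFD and 0.386 for WD). Of all genes tested, 4.84% passed there on HFD and 0.0% on WD. Against WT liver, 4 of 14 rose in tumor, beside 8.08% of all genes tested, and 0 fell. The ligand Jag2, at the floor in WT liver, was at least 6.04-fold higher (adjusted p = 0.0137), a call lost only without WT replicate 2 (0.0551) among 19 alternatives. The ligand Dll4 rose by 1.48 ± 0.34 (adjusted p = 0.0213), the receptor Notch3 by 1.46 ± 0.36 (0.0279) and the feedback inhibitor Nrarp by 1.87 ± 0.53 (0.0408). All 3 were highest in tumor 2, with 18.6, 12.7 and 8.87 CPM, and lowest in tumor 1, with 6.32, 4.27 and 2.66 CPM. Without tumor 2 their calls were lost (adjusted p = 0.0583, 0.087 and 0.119), and likewise without WT replicate 1 (0.0583, 0.0698 and 0.0879), 2 (0.084, 0.106 and 0.142) or 3 (0.0534, 0.0635 and 0.0882). Notch3 and Nrarp were also lost without tumor 3 (0.0577 and 0.0785) and Nrarp without N-LKO liver replicate 1 (0.0629). Against N-LKO liver, 0 of 14 passed, Dll4 (1.75 ± 0.34, adjusted p = 0.0594) and Jag2 (2.73 ± 0.59, adjusted p = 0.0754) being nearest. Both passed there without tumor 1 (0.00105 and 0.0179).

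The Hippo pathway restrains the coactivators YAP and TAZ through the kinases LATS1 and LATS2, and YAP activity in hepatocytes brings out duct cell genes. Of 13 genes listed, 10 were tested on HFD, where 2 fell in N-LKO liver, both kinase genes, and 0 rose. Genes that fell made up 2.29% of all genes tested. The median log2 fold change of the 10 was -0.0181, beside -0.00577 over all genes tested. Lats2 fell by 0.64 ± 0.12 on the log2 scale (adjusted p = 0.018) and Lats1 fell by 0.37 ± 0.08 (adjusted p = 0.0251). Neither overlapped between the groups, as was so for 14.8% of all genes tested. Each call was lost without N-LKO replicate 1 (0.0574 and 0.0606), N-LKO replicate 3 (0.0524 and 0.0747) or WT replicate 2 (0.0586 and 0.053), and that of Lats1 also without N-LKO replicate 4 (0.054) or WT replicate 4 (0.0772) and with an offset for length and GC content (0.187). On WD none of the 13 passed in N-LKO liver. Ajuba, which encodes a LIM protein that binds LATS kinases, had 10.7, 31.7 and 21.8 CPM in N-LKO and 9.33, 6.03 and 8.94 CPM in WT liver, without overlap. Its log2 fold change was 1.40 ± 0.35 (adjusted p = 0.353), and DESeq2 called it (0.0247). The YAP target Ankrd1, at the floor in WT liver, had an adjusted p of 0.353 in edgeR. In tumor against WT liver 2 of 13 passed, a share near the 14.9% of all genes tested. Tead2 rose by 1.94 ± 0.54 (adjusted p = 0.0387) and Amotl2, a YAP target, fell by 0.69 ± 0.18 (adjusted p = 0.0302). The call of Tead2 was kept in 10 of 20 alternatives and, of the fits that left out a library, only in that without tumor 1. That of Amotl2 was kept in 12 of 20 and was lost without N-LKO liver replicate 3 (0.0536) and without WT replicate 1, 2 or 3 (0.0728, 0.0995 and 0.0552).

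Signals that drive ductular reactions include the cytokine TWEAK (Tnfsf12), which acts on its receptor Fn14 (Tnfrsf12a) on duct and progenitor cells, and lymphotoxin beta (Ltb). Of 10 such genes, 7 were tested on HFD and Tnfsf12 alone passed, where 4.84% of all genes tested did (2.56% higher). Tnfsf12 had 10.5 ± 1.18 CPM in N-LKO and 6.30 ± 1.37 CPM in WT liver (SD, n = 4 each, log2 fold change 0.74 ± 0.17, adjusted p = 0.0336). That call was kept in 3 of 8 fits that left out a liver, and was lost without N-LKO replicates 1, 3 and 4 (0.09, 0.0798 and 0.0717) and WT replicates 2 and 4 (0.0832 and 0.0892), as well as with the length and GC offset (0.0921). On WD, 9 were tested and 0 passed in N-LKO liver. In tumor against WT liver 3 of 9 rose, beside 8.08% of all genes tested, namely Ltb by 2.81 ± 0.58 (adjusted p = 0.0165), Tgfb2 by 2.38 ± 0.51 (0.0184) and Tnfrsf12a by 1.44 ± 0.37 (0.0302). Ltb and Tgfb2 were not called without WT replicate 2 (0.0668 and 0.064), nor was Tnfrsf12a without tumor 2 (0.0836), WT replicate 1 (0.0913) or WT replicate 2 (0.115).

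Hepatocyte genes were followed beside the markers. Of 8 listed, 0 passed in N-LKO liver on either diet, where 4.84% of all genes tested passed on HFD and 0.0% on WD. On WD all 8 had a negative log2 fold change in N-LKO liver, with a median of -0.53, and their sum was 36490, 31280 and 39590 CPM in N-LKO liver, below every WT liver, where it was 43760, 51990 and 52820 CPM. The part of this in the marker values of N-LKO liver was not tested. In tumor against WT liver 4 fell, beside 6.8% of all genes tested. These were Tat (-1.74 ± 0.48, adjusted p = 0.0378), Ttr (-0.79 ± 0.19, 0.0246), Hnf4a (-0.75 ± 0.18, 0.0266) and Asgr1 (-0.73 ± 0.22, 0.0492), and all 4 calls were lost without WT replicate 2 (0.138, 0.0641, 0.0726 and 0.164). Of 9 fits that left out a library, the calls were kept in 2, 6, 6 and 1, with adjusted p-values of the other lost calls up to 0.102. Their summed level, mostly Alb, was 37680, 33540 and 58960 CPM in tumors 1, 2 and 3, highest in tumor 3.

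Other epithelia that share these markers were checked by their own genes. Of 9 genes of gallbladder and gut mucosa, 4 were in the WD table, and their sum was 33.3, 333.8 and 220.0 CPM in tumors 1, 2 and 3, at most 6.07 CPM in N-LKO liver and at most 3.34 CPM in WT liver. Tff3, a secreted peptide of mucous cells, made up most of it in tumors 1 and 3, with 27.3, 155.6 and 214.7 CPM, and rose by 7.56 ± 0.95 against WT liver (adjusted p = 0.00563), a call kept in all 20 alternatives. Against N-LKO liver it rose by 7.75 ± 0.95 (adjusted p = 0.0151), a call lost without each N-LKO liver (0.0819, 0.125 and 0.109) and in limma-voom (0.085). Vil1, an actin-bundling protein of the brush border, reached 172 CPM in tumor 2 and 0.552 and 2.03 CPM in tumors 1 and 3. Its call against WT liver (adjusted p = 0.0299) was lost without WT replicate 1, 2 or 3 (0.0868, 0.113 and 0.0798), in limma-voom (0.408) and with the 2 groups alone (0.0743). Krt20, a keratin of gut epithelium, was at the floor in WT liver and had 10.99, 0.666 and 2.03 CPM in the tumors, at least 22.2-fold higher on average (adjusted p = 0.0162, lost without WT replicate 1 or 2 at 0.0527 and 0.0715, and in limma-voom at 0.0761). Of the 8 mesothelial genes, 2 were tested on HFD, 6 on WD and 3 for the diet difference, and 0 had a call. The part of any of these cell types in the marker values was not tested. Of the 8 stellate cell and fibroblast genes, Reln fell in tumor against WT liver by 0.94 ± 0.23 (adjusted p = 0.0276, lost without tumor 2 or 3 or any WT liver, up to 0.0781) and the other 7 did not pass, so that 1 of 8 was called where 14.9% of all genes were. In N-LKO against WT liver on WD, 0 of the 8 passed, 7 had a positive log2 fold change and the median was 0.569. Their sum there was 790.0, 970.1 and 964.2 CPM in N-LKO and 717.3, 428.7 and 847.4 CPM in WT liver, with overlap, and the part of these cells in the marker values was not tested.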

How the data were processed

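RNA-seq libraries of 17 samples were compared. The authors isolated total RNA from mouse liver or tumor, removed ribosomal RNA and sequenced short single reads. The authors deposited estimated counts, 1 column per library, with many values that are not whole, and neither scaled nor pooled them. The submitters' processing notes name STAR, Partek and mm9 and the study's methods name TopHat2, while the deposited gene positions match GENCODE M21 of GRCm38, whose coordinates are used. Strand use is not given in the sources used here. All columns of per-sample values were assigned to a sample, 0 were left over.

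Rounded counts went into edgeR 4.0.16 under R 4.3.3 (quasi-likelihood, TMM scaling, filterByExpr, Benjamini-Hochberg adjusted p under 0.05 over all genes tested). HFD livers were fitted alone and the 3 WD groups together, and the diet difference over 14 livers. Standard errors are approximate and come from the log2 fold change and the root of its F value. The floor was 3 counts in every library of a group. The 6 markers, the gene lists, the naming rule and the tests were chosen with earlier results of these data known. Named were the 6 markers, Nus1, per list up to 4 passing genes of largest change (where none passed, the 2 of lowest p), and 5 genes of most similar profile per table, at a mean of at least 1 CPM. Correlations used log2 CPM with a prior count of 2. Alternatives were other scaling, other filters, DESeq2 1.42.0, limma 3.58.1 (voom), unrounded counts, a length and GC offset, a replicate block, fits of 2 groups only and leaving out each library. The values of 1 gene on the bile duct list are not reported here, though the list's counts include it.

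Within a group, no library was another one deposited again, since the chi-square per degree of freedom of counts was 7.99 or more over the 21 pairs of replicates. Libraries of different groups were not compared in this way. The procedure was tested on simulated data. With 200 changed genes, edgeR recovered 92.7% of changes of 1 on the log2 scale on HFD (13234 genes) and 56.4% in tumor against N-LKO liver (17507 genes). The changed genes were drawn only from genes more abundant than the markers other than Sox9. These rates therefore do not apply to the rarer markers, whose recovery was not simulated.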

Additional observations from a re-analysis of the deposited data

Results flagged for a closer look

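By a test for a single library far from the rest of its group, run on the 6 markers and Nus1 in the 2 HFD groups of 4 (14 groups in all, of which chance flags about 1 in 20), 3 values stood apart. Sox9 was 3.743 CPM in WT replicate 1 on HFD, with the other 3 WT livers between 5.53 and 5.69 CPM. Krt19 was 0.1597 CPM in N-LKO replicate 4 on HFD, where the other 3 had 0.494 to 0.543 CPM. Krt7 was 0.2033 CPM in WT replicate 4 on HFD, a value of 2 counts beside 1 count in each other WT liver. Both keratin values rest on 2 counts each. No marker passed the test of a difference between the diets.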

How the results depend on the processing

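The count of markers called was 0 in N-LKO against WT liver on HFD and on WD, 2 in tumor against WT liver and 0 for the diet difference, and it was the same under every alternative run, except that it was 3 in tumor against WT liver without tumor 1, where Epcam was called lower. In tumor against N-LKO liver the count was 1 and depended on the setting. It was 2 in DESeq2 (Prom1 added) and 0 with limma-voom, with the 2 groups alone, with the replicate block and with the block plus the length and GC offset. Leaving out a library gave 0 to 3, the 3 (Epcam and Muc1 lower, Sox9 higher) without tumor 1. The cause was not tested. With the 2 groups alone, 16 calls of list genes in tumor against WT liver were also lost, with adjusted p-values from 0.0503 (Ltb) to 0.106 (Asgr1).

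Signs reversed only in tumor against WT liver, for markers that had no call there. Krt19 became 0.00346 with upper-quartile scaling and 0.12 with the length and GC offset, and between 0.09 and 0.45 when a library was left out (0.31 without tumor 2, 0.45 without tumor 3, 0.34 and 0.0915 without WT replicates 1 and 3). Across the libraries left out Krt19 ran from -2.01 to 0.45, Krt7 from -0.61 to 0.40, Epcam from -2.93 to 1.13 and Muc1 from -2.45 to 0.865. Krt7 became 0.40, 0.23 and 0.22 without tumor 3, WT replicate 1 and WT replicate 3. Epcam became -1.13 and Muc1 -1.37 with limma-voom, and -2.93 and -2.45 without tumor 1. Muc1 was -0.24 under the replicate block and -0.16 under the block with the offset.

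The number of all genes called, against which the markers are read, moved over 1.5 times in several settings. On HFD it was 652 (4.84% of genes tested), and 1000 in DESeq2, 281 with the offset, 1.13% of genes tested with block and offset, and 179 to 597 with a library left out. On WD it was 0 in N-LKO against WT liver (100 in DESeq2, 6 with the 2 groups alone). In tumor against N-LKO liver it was 89, and 1021 in DESeq2, 58 at a mean of 1 CPM, 18 in limma-voom, 36 under the block, 40 with block and offset, 29 with the 2 groups alone, and 3 to 2193 with a library left out, the most without tumor 1. In tumor against WT liver it was 2653 (705 with the 2 groups alone, 569 to 3819 with a library left out). For the diet difference it was 257 (981 in DESeq2, 72 with the offset, 0 under the block, 22 to 330 with a library left out). As a check of pairing, deviations from the group means of same-numbered libraries correlated between -0.0759 and 0.107 on HFD and between -0.124 and 0.101 on WD, and were highest for the own number in 1 of 4 and 3 of 9 pairs. Between N-LKO liver and tumor the coefficients were 0.101, 0.0591 and -0.0108 for replicates 1, 2 and 3. With so few libraries per group, this check cannot tell whether a tumor and a liver came from the same mouse. Few counts per marker limit what HFD livers can show.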
